A study of Mus musculus with 7 samples.

Results

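Regions found by Benzonase alone are stretches of the mouse liver genome in which a Benzonase hotspot overlapped no hotspot of Cyanase and none of DNase I. They were chosen by the presence and absence of hotspots in 3 deposited lists: hotspots on the 19 autosomes that shared at least 1 bp were merged into regions, and regions holding Benzonase only were kept. The rule kept 8301 of 90879 regions, or 9.13% (95% Wilson interval 8.95 to 9.32). They held 14.1% of the 59040 autosomal Benzonase hotspots, 1 hotspot in each region. A hotspot is a stretch in which cleavage tags cluster above background by the authors' caller, so absence from a list means that no hotspot was called there, and tags below that level may still exist.

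All tissue was liver of male C57BL/6 mice aged 8 week. The labels list 7 samples. Benzonase and Cyanase were each applied at 0.25, 1 and 4 U, with 1 sample per amount, to intact frozen liver that was pulverized before digestion, and DNase I was applied in 1 sample to fresh liver, from which nuclei were purified. Each list was called on pooled tags, so there is no spread between samples or animals, and all intervals below cover counting error over regions only. In comparisons with DNase I, the enzyme and the preparation of the tissue cannot be told apart. The lists carry no tag counts, and the depth behind a hotspot is unknown. The autosomal lists held 55904 Cyanase and 69897 DNase I hotspots. The tissue label was checked on 52 hepatocyte genes, among them those of albumin and other secreted liver proteins: all 52 had a transcription start site (TSS) inside a hotspot of every list. Over all protein-coding genes this share was 58.0% for Benzonase, 56.3% for Cyanase and 47.97% for DNase I. Proteasome genes reached 95.7% in each list, so a high share is not particular to hepatocyte genes.

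Nucleases cut DNA where nucleosomes leave it exposed, above all at promoters, enhancers and insulators. CpG islands are GC-rich stretches that have kept their CpG dinucleotides. They cover the promoters of housekeeping genes, which are active in every tissue, and also those of many developmental and neuronal genes, which in adult liver are mostly silent and often carry the Polycomb mark. Benzonase and Cyanase are endonucleases that remain active in detergent, and DNase I is the enzyme classically used to map open chromatin.

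The central 150 bp of 6 of the regions show what such DNA looks like. All are from mm9, plus strand, 5′ to 3′, with CpG dinucleotides in capitals in the first 5. The first 4 are the widest Benzonase-alone regions in a promoter with a CpG island, a promoter without one, an exon, and distal DNA. The next lies in Slc2a2, the glucose transporter gene of hepatocytes, and is the intronic region closest to a hotspot of another list. The last, chosen after its values were seen, shows G-rich repetitive DNA, with runs of at least 3 G in capitals.
Cacnb2, promoter with an island, chr2:14526204-14526353: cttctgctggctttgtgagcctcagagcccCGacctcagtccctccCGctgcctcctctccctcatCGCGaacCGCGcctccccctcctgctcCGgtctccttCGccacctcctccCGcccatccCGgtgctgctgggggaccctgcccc
Ppfia2, promoter without an island, chr10:105906395-105906544: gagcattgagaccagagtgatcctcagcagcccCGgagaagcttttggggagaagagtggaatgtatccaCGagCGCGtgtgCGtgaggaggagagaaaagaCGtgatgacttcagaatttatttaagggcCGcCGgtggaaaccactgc
Fjx1, exon, chr2:102291026-102291175: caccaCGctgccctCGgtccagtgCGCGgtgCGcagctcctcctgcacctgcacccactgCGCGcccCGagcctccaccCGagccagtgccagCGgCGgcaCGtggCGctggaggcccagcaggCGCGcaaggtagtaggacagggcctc
Dact1, distal, chr12:72663544-72663693: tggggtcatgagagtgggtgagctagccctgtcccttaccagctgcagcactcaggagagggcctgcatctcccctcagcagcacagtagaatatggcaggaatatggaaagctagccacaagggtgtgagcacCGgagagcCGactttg
Slc2a2, intron, chr3:28603886-28604035: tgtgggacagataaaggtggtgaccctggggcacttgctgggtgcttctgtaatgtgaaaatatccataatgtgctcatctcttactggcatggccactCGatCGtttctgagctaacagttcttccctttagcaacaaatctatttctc
Trib2, distal, runs of G, chr12:15728677-15728826: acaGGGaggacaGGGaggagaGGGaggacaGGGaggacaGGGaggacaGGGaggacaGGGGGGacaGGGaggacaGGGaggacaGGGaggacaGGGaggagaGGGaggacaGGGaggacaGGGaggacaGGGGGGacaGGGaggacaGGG
The stretch at the Cacnb2 promoter held 10 CpG in 150 bp and that in the Fjx1 exon held 15. The distal stretch whose nearest TSS is that of Dact1 held 2 CpG at a GC content of 57.3%, so a high GC content came both with many and with few CpG. The stretch labelled Trib2, whose region lies 94702 bp from that gene's TSS, the nearest, held 17 runs of G and had a GC content of 68%.

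The regions were narrow. Their median width was 369 bp (quartiles 284 and 460, range 251 to 1308 bp), against 706 bp for the other Benzonase hotspots, and together they covered 3237 kb. Width is part of the same measurement as the rule, and it is given as a description. Among Benzonase hotspots of 251 to 485 bp, 6638 of 14703 (45.1%) were found by Benzonase alone. The share was 10.1% for hotspots of 486 to 653 bp, 0.986% for those of 654 to 947 bp and 0.169% (25 of 14776) for the widest quartile. Cyanase-alone regions, 6029 in number, had a like median width of 357 bp, whereas regions held by Benzonase and Cyanase (9207) and by Benzonase and DNase I (3200) were wider, with medians of 623 and 632 bp.

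Some regions lay beside a hotspot of another list and most did not. The distance to the nearest Cyanase or DNase I hotspot had a median of 8221 bp, and 1739 regions (20.9%) had one within 1 kb. The median distance was 13340 bp to Cyanase and 14413 bp to DNase I hotspots. Just inside the rule, with a gap of 0 bp to a neighbouring hotspot, were 3 regions: near Rbm17 (chr2:11474677-11474985), next to a Cyanase hotspot and with 56.0% GC, in Slc2a2 (chr3:28603641-28604281), next to a DNase I hotspot and with 47.1% GC, and near Pdgfc (chr3:80821869-80822311), next to a DNase I hotspot and with 49.2% GC. Just outside it, with an overlap of 1 bp, were Benzonase hotspots near Rims1 (54.0% GC) and in Lpin1 (58.2% GC), touching Cyanase hotspots, and in Cyp4f15 (48.0% GC), touching a DNase I hotspot. In all, 156 regions lay within 50 bp of another list, and 108 Benzonase hotspots were left out by an overlap of at most 50 bp. Regions within 1 kb of another list were in promoters more often than the other 6562, at 15.8% against 7.80%. The difference was 8.01 percentage points (95% Newcombe interval 6.24 to 9.91). This split uses the same hotspots whose absence defines the regions. It was not adjusted for how often those hotspots lie in promoters, which 17.5% of all regions touched. The promoter difference is therefore given as a description. Mean GC content was 54.5% in regions within 1 kb and 54.2% in the others, a difference whose interval (-0.0793 to 0.609) held 0.

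Most Benzonase-alone regions lay away from genes' starts. By position in the GENCODE M1 annotation, 787 (9.48%, 8.87 to 10.1) touched a promoter, taken as the 2 kb before the start of any protein-coding transcript, 1052 (12.7%) an exon outside promoters, 2399 (28.9%) an intron, 134 (1.61%) the 2 kb downstream of a gene, and 3929 (47.3%) distal DNA. The promoter share was below that of all 90879 regions, which was 17.5%. Cyanase-alone regions were in promoters less often, at 6.10%, a difference of 3.38 percentage points (2.50 to 4.25) with the same sign on all 19 autosomes. Regions held by Benzonase and DNase I had 6.56% in promoters (difference 2.92, 1.82 to 3.95, higher on 17 of 19 autosomes). Regions held by both Benzonase and Cyanase had 23.9%, which exceeded the Benzonase-alone share on all 19 autosomes (difference -14.5, -15.5 to -13.4). Assigned by midpoint, the 3 differences were 1.61, 1.40 and -7.54, and without the narrowest quartile of hotspots in each list, the first 2 were 6.12 and 7.70. That setting gave 3828 Benzonase-alone regions, of which 1663 were among the 8301 and 2165 were not. Their promoter share was 15.4%, against 22.3% of all regions under the same setting. At an overlap of 50% of both hotspots the difference from Cyanase-alone regions was 1.47.

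**Figure D1:**
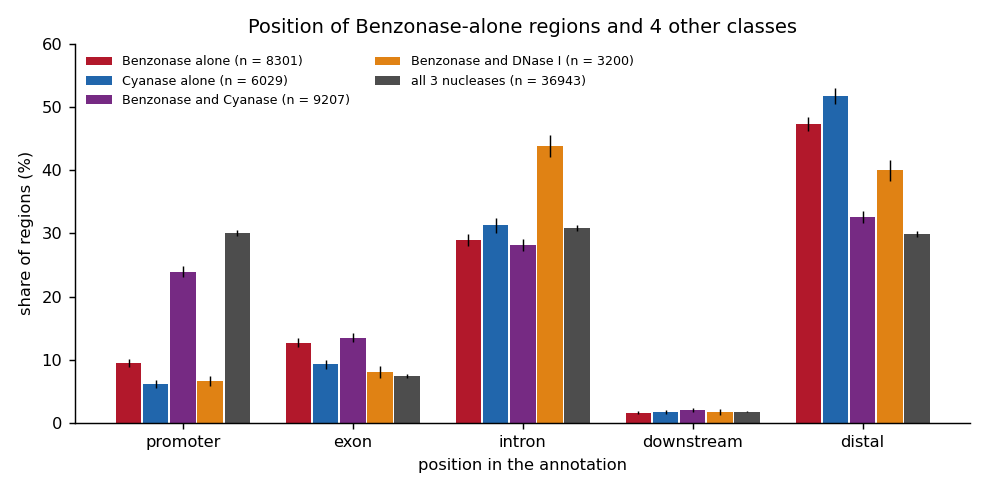
Share of regions (%) by position in the annotation, with 95% Wilson intervals as error bars, for Benzonase-alone regions and 4 other classes. Benzonase-alone regions (red) were distal in 47.3% and in promoters in 9.48%, and regions of all 3 nucleases (grey) were in promoters in 30%.

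Coding sequence was touched by 1210 Benzonase-alone regions (14.6%) against 9.44% of Cyanase-alone regions, a difference of 5.14 percentage points (4.07 to 6.19), and against 16.4% of all regions. A 5′ UTR was touched by 6.89% against 3.25%, and a 3′ UTR by 2.73% against 1.94%, and the intervals of both differences excluded 0. Over all regions these shares were 14.7% and 3.10%. All regions had a median width of 644 bp, and widths were not matched in these comparisons. Of the 1052 exonic regions, 609 (57.9%) touched an internal exon, 323 (30.7%) a last exon, 169 (16.1%) a first exon and 61 (5.80%) the exon of a transcript without introns, where a region can touch more than 1 kind. Exonic Cyanase-alone regions touched a first exon in 10.2%. Distal Benzonase-alone regions were far from genes: the nearest TSS was a median of 109603 bp away, against 116510 bp for distal Cyanase-alone regions.

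Base composition set the regions apart from the DNA around them. Their mean GC content was 54.3% (SD 6.23 over regions, range 28.4 to 83.3), and that of the 5 kb on either side was 44.4% (SD 5.26). The region exceeded its own flanks in 96.3% of cases, by 9.95 percentage points on average (SD 6.21). The elevation was local: in 100 bp windows, mean GC content was 55.4% just next to the centre, 45% at 1050 bp and 43.6% at 4050 bp downstream. GC content exceeded 50% in 76.2% of the regions.

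**Figure D2:**
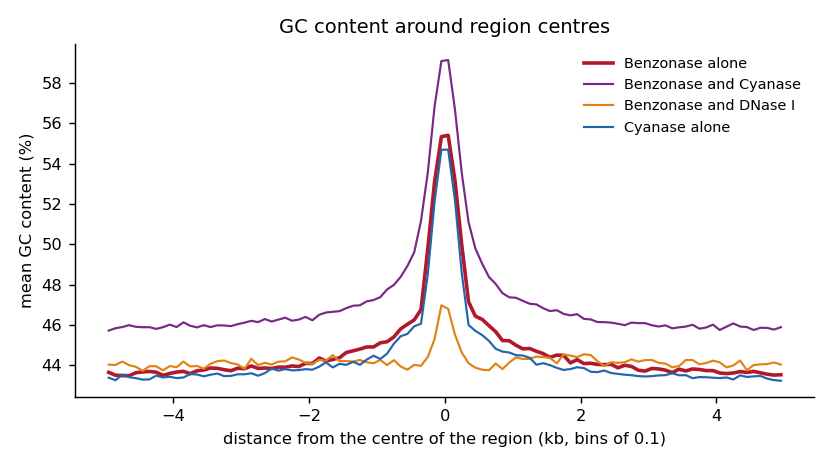
Mean GC content (%) in 100 bp bins up to 5 kb to either side of region centres, for Benzonase-alone regions and 3 other classes. The Benzonase-alone line peaks at 55.4% and falls close to 44% within 2 kb, and the line for regions of Benzonase and DNase I stays below 48%.

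Against the other classes the differences were of unequal size. Benzonase-alone regions exceeded Cyanase-alone regions by 0.747 percentage points of GC (95% interval from the Welch standard error 0.546 to 0.948), which is small beside the SD of 6.23 between regions, and the sign held on 16 of 19 autosomes. The difference was 0.323 at an overlap of 50% and 1.59 without narrow hotspots. They were 8.58 percentage points above regions of Benzonase and DNase I, whose mean was 45.7% (8.36 to 8.80, all 19 autosomes). They were below regions of Benzonase and Cyanase, whose mean was 56.0% (difference -1.66, -1.85 to -1.46) and, over the central 150 bp, by more (difference -3.78). The excess over the flanks, compared with regions of Benzonase and Cyanase, changed sign with the window. Over whole regions, which differ in width, it was 0.394 larger in Benzonase-alone regions (0.197 to 0.591, on 15 of 19 autosomes), and over the central 150 bp it was smaller (difference -1.73, -1.97 to -1.49).

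**Figure D3:**
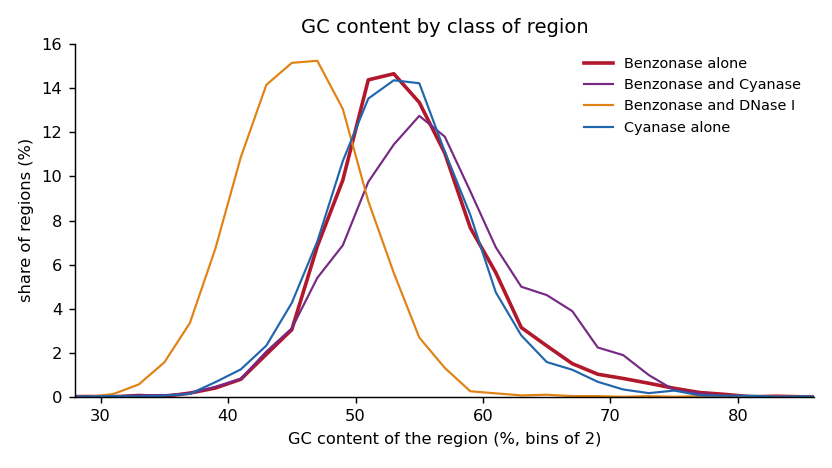
Distribution of GC content (%, bins of 2) over regions of 4 classes, as the share of regions in each bin. The Benzonase-alone and Cyanase-alone curves nearly coincide around medians of 53.7% and 53.4%, the curve of Benzonase and Cyanase reaches further right, and that of Benzonase and DNase I is centred on 45.7%.

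GC content varied with position. Promoter regions averaged 60.1% (SD 7.89), exonic ones 59.0% (SD 6.10), intronic ones 53.0% (SD 5.20) and distal ones 52.7% (SD 5.10), and distal regions stood in flanks of 42.2%. The median ratio of observed to expected CpG was 0.203, and it was 0.514 in promoters and 0.153 in distal regions. CpG made up 2.17% of dinucleotides in Benzonase-alone regions and 1.47% in Cyanase-alone regions, and GpC 6.95% and 5.73%. GG or CC was the less frequent in Benzonase-alone regions, at 17.5% against 18.8%.

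CpG islands were touched by 780 Benzonase-alone regions (9.40%, 8.79 to 10.04), below the 13.5% of all regions. The share was 3.68% in Cyanase-alone regions (difference 5.71 percentage points, 4.92 to 6.50), 1.16% in regions of Benzonase and DNase I (difference 8.24, 7.49 to 8.96) and 23.9% in regions of Benzonase and Cyanase (difference -14.5, -15.6 to -13.4), each with its sign on all 19 autosomes. Without the narrow hotspots the share was 17.1% (15.9 to 18.3), an interval that held the 17.9% of all regions under that setting, and the differences from Cyanase-alone regions and from regions of Benzonase and DNase I were 10.9 and 15.7, and at an overlap of 50% the difference from Cyanase-alone regions was 2.80. The difference from Cyanase-alone regions was present within promoters, where 43.6% of Benzonase-alone and 23.4% of Cyanase-alone regions touched an island, within exons (24.7% and 13.3%) and in distal DNA (2.85% and 0.769%). In introns the shares were 2.38% and 2.0%, and their intervals overlapped. Wider regions touched islands more often, with 5.09%, 6.42%, 8.50% and 17.5% from the narrowest to the widest quartile. Counting only an island at the centre of the region gave 4.17%, 5.41%, 6.94% and 15.3%.

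Seen from the islands, 754 of 22431 autosomal islands held a Benzonase-alone region. Of these, 633 (83.95%) held no hotspot of another list anywhere along the island, 121 also held a Cyanase hotspot and 29 a DNase I hotspot. Their median length was 629 bp, against 469 bp for all islands. By the rule, no hotspot of another list overlaps the Benzonase-alone region in an island. The 83.95% was therefore fixed in part, and it is given as a description. For comparison, 8933 islands held hotspots of all 3 nucleases and 10308 held none. A TSS of a protein-coding transcript lay inside 265 of the 780 regions with an island.

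A TSS lay inside 428 Benzonase-alone regions (5.16%, against 2.31% of Cyanase-alone regions, difference 2.85, 2.24 to 3.46, 19.5% of regions of Benzonase and Cyanase and 13.9% of all regions), and these were the starts of 429 of 21416 protein-coding genes, or 2.0%. The last 2 classes of region were wider, with medians of 623 and 644 bp, and widths were not matched. Among Benzonase-alone regions the TSS share was 2.23% in the narrowest and 10.8% in the widest quartile. For 345 of the 429 genes (80.4%) no TSS lay in any hotspot outside the Benzonase-alone regions. The remaining 84 had an alternative start in such a hotspot. The rule itself places a start inside a Benzonase-alone region outside every Cyanase and DNase I hotspot. A gene whose starts all lie inside such regions can therefore only fall among the 345, and such genes were not counted apart.

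Neuronal channel and receptor genes stood highest among 20 gene lists. Of 216 such genes, 17 (7.87%, 4.97 to 12.2) had a TSS inside a Benzonase-alone region, beside 2.0% of all protein-coding genes. In the full lists, 70 of these genes had a TSS in a Benzonase hotspot, 56 in a Cyanase hotspot and 14 in a DNase I hotspot. These are 32.4%, 25.9% and 6.48% of the list, each below the share over all protein-coding genes, which was 58.0%, 56.3% and 47.97%. By the rule, a start in a Cyanase or DNase I hotspot cannot lie in a Benzonase-alone region. A list with fewer such starts therefore has more starts left to count. The shares of the 20 lists were not adjusted for this, and their order is given as a description. The widest region was at Cacnb2, which encodes a beta subunit of voltage-gated calcium channels: it was 1308 bp wide (chr2:14525625-14526932), had 64.98% GC in flanks of 41.6%, touched an island, and lay 128401 bp from the nearest Cyanase and 13966 bp from the nearest DNase I hotspot. It is the first sequence printed above. Kcnj3, an inwardly rectifying potassium channel, followed with 1064 bp (chr2:55289039-55290102, 58.1% GC), and its nearest Cyanase hotspot was 299586 bp away. The region at Htr7, a serotonin receptor, was 994 bp wide (chr19:36130971-36131964, 64.7% GC), and that at Kcns2, a modifying potassium channel subunit, 644 bp (chr15:34767038-34767681, 70.2% GC). Further genes of the list were Gabrd, Scn3b, Grik2, Scn9a, Cacna1b and Scn7a, with widths from 354 to 596 bp. In none of the 17 genes did a TSS lie in a hotspot outside the Benzonase-alone regions, which the rule fixes for any gene whose starts all lie inside them.

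Genes of developmental transcription factor families followed, with 11 of 165 (6.67%, 3.76 to 11.5). In the full lists, 28.5% of these genes had a TSS in a Cyanase hotspot and 12.7% in a DNase I hotspot, again few. Dlx6, a homeobox factor of face and limb, had a region of 681 bp (chr6:6813480-6814160) with 73.6% GC, 14648 bp from the nearest Cyanase and 15200 bp from the nearest DNase I hotspot. Sim2, a factor of midline development, had one of 613 bp (chr16:94085507-94086119, 68.2% GC) that ended 29 bp from a Cyanase hotspot. Gsc, the organizer factor goosecoid, had one of 573 bp (chr12:105711165-105711737, 66.0% GC). Further genes of the list were Dlx2, Pax8, Isl1, Lhx9 and Isl2. Of the 11 genes, 8 had no TSS in a hotspot outside such regions, which the rule fixes for any gene whose starts all lie inside them.

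Of 52 hepatocyte genes, 1 had a TSS in a Benzonase-alone region (1.92%, 0.340 to 10.1), close to the 2.0% of all protein-coding genes. Of 39 liver transcription factors there were 2 (5.13%, 1.42 to 16.9), and this interval held 2.0%. In Srebf1, the regulator of lipid synthesis, the region (chr11:60020447-60020770, 324 bp) held the most downstream of 4 starts, and the other starts lay in hotspots of all 3 lists. In Tbx3, which is also on the developmental list, the region (chr5:120130548-120130804, 257 bp, 71.2% GC) held the most downstream of 4 starts, and the other starts again lay in hotspots of all 3 lists. Anywhere in their span, 17 of the 52 hepatocyte genes (32.7%) had 1 or more such regions, against 14.4% of all protein-coding genes, and the lengths of the genes were not matched. This share was not particular to hepatocyte genes. It was 39.4% for the neuronal list and 31.8% for stellate cell markers, and 11.1% for genes of sterol and fatty acid synthesis.

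**Figure D4:**
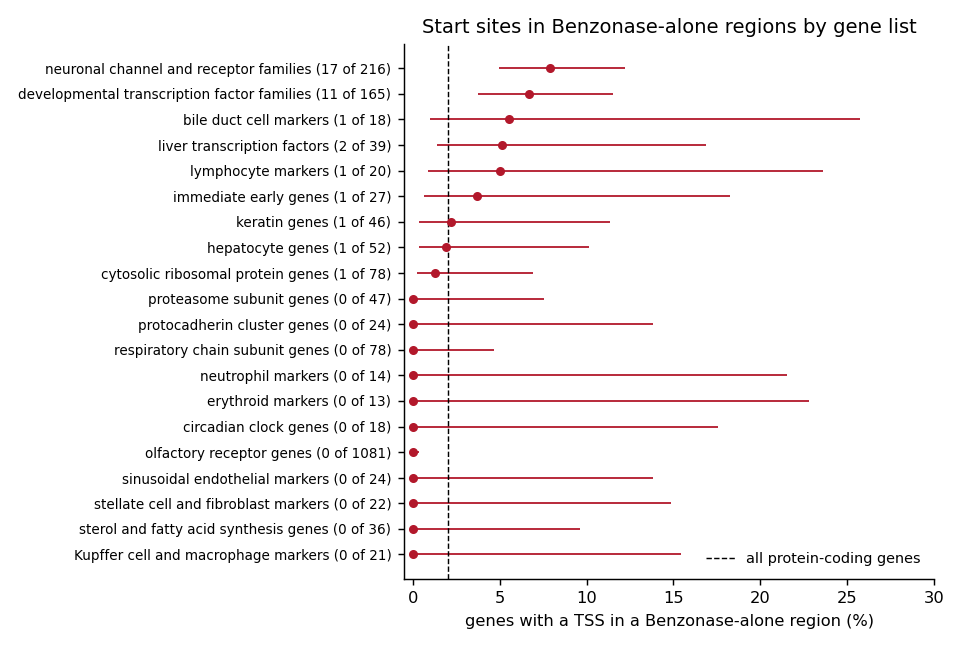
Share of genes (%) with a TSS inside a Benzonase-alone region, for 20 gene lists, with 95% Wilson intervals and the number of genes in brackets. The dashed line marks 2.0%, the share over all protein-coding genes, and the intervals of the neuronal and the developmental list lie above it. Shares were not adjusted for starts in Cyanase or DNase I hotspots, which the rule excludes.

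In the other 16 lists at most 1 gene was found. These were Egr2 among 27 immediate early genes, Krt19 among 18 bile duct markers and also among 46 keratin genes, Zap70 among 20 lymphocyte markers, and Rpl10l, a copy of a ribosomal protein gene, among 78 cytosolic ribosomal protein genes. The region at Egr2 (chr10:66997721-66998568, 848 bp) held the 2 most upstream of 6 starts and lay 23 bp from a Cyanase hotspot. There were 0 among 36 genes of sterol and fatty acid synthesis, 21 Kupffer cell and macrophage markers, 24 sinusoidal endothelial markers, 22 stellate cell markers, 14 neutrophil and 13 erythroid markers, 18 clock genes, 47 proteasome and 78 respiratory chain genes and 24 protocadherin genes, where the upper limits of the Wilson intervals ran from 4.69% to 22.8%. Among 1081 olfactory receptor genes there were 0 as well, with an upper limit of 0.354%.

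Among the 10 widest regions, 8 touched a CpG island. Besides Cacnb2 these were Frmd3 (1256 bp, 59.6% GC), the transcriptional regulator Prdm6 (1175 bp, 73.0% GC), the acyl-CoA synthetase Acsl6 (1163 bp, 63.6% GC), the growth factor Fgf9 (1136 bp, 63.0% GC) and the tetraspanin Tspan9 (1077 bp, 64.3% GC), all with a TSS inside, and the coding exons of Fjx1 (1150 bp, 68.8% GC) and of the scavenger receptor Scarf2 (1133 bp, 63.5% GC). The region at Fgf9 ended 53 bp from a Cyanase hotspot, and that at Fjx1 570 bp. The 2 without an island were distal: one of 1223 bp lay 252037 bp from the nearest TSS, that of Dact1 (58.8% GC), and one of 1128 bp lay 49751 bp from that of Speer4f (55.3% GC). Their ratios of observed to expected CpG were 0.134 and 0.0826.

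Genes with the most Benzonase-alone regions in their span were mostly long. The first 2, Gm20388 with 25 and Fgfr2 with 11, have annotated spans of 4435 and 3009 kb, and they hold 375 and 166 regions of any class. In both genes the Benzonase-alone share was below the 9.13% of all regions. The genes named next were above it, and all were picked for their counts of such regions. The protocadherin gene Pcdha11 on chromosome 18 had 7 in 257 kb, of only 12 regions of any kind, and none of its regions was held by all 3 nucleases. Cadm2, a synaptic adhesion gene, had 7 of 12 regions in 965 kb, and Dlg2, a scaffold of the synapse, 7 of 21 in 1945 kb. Thsd4, Magi1, Dab1, Agbl4 and Magi2 had 6 each, with spans of 555 to 1478 kb. Of the Benzonase-alone regions, 1179 (14.2%) had another within 10 kb, and 72 runs of at least 3 such neighbours held 229 of them. The longest runs had 5 regions, and 4 runs reached that number. A run of 4 lay at Srebf1 (chr11:60014199-60025573). Neighbours and runs were not counted for other classes or for all regions, so whether Benzonase-alone regions cluster was not tested. Density ranged from 3.02 regions per Mb on chromosome 1 to 3.93 on chromosome 11.

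Runs of G were scarcer in Benzonase-alone than in Cyanase-alone regions, although the 2 classes had like widths and GC contents. The Benzonase-alone share was nearer to that of all regions, and to the 12.6% of regions of all 3 nucleases, than to the Cyanase-alone share. The measure, chosen after values were seen, was 4 runs of at least 3 G, or of at least 3 C, spaced by 1 to 7 bases within the central 300 bp. In this window 1143 Benzonase-alone regions (13.8%) held such runs, against 26.7% of Cyanase-alone regions (difference -12.9, -14.3 to -11.6, lower on all 19 autosomes) and 11.4% of all regions. Regions of Benzonase and Cyanase held them in 24.9% and those of Benzonase and DNase I in 2.84%. At a GC content of 45 to 50% the shares were 7.58% and 16.6% for Benzonase alone and Cyanase alone, at 50 to 55% they were 11.3% and 26.7%, and at 55 to 60% they were 16.1% and 30.8%. In distal regions they were 13.1% and 27.5%, and without an island 12.6% and 26.1%. All intervals of these differences excluded 0.

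Short motifs of transcription factors were counted in the central 300 bp on both strands. The window reaches past the ends of regions narrower than 300 bp, matches of different motifs may overlap, and the intervals are not adjusted for the 23 features counted. A match describes letters and does not show that a factor was bound. The motifs of liver factors were scarcer in Benzonase-alone regions than in regions of Benzonase and DNase I. The C/EBP motif (TTGCNNAA) was in 8.34% against 22.3% (difference -13.9, -15.5 to -12.4), with 17.2% over all regions. The forkhead motif (TGTTTAC) of the FOXA factors was in 3.12% against 8.25%, with 6.63% over all regions. The HNF6 motif (ATCAATA) was in 1.55% against 6.88%, the HNF4 motif (CAAAGTCCA) in 0.434% against 2.06%, and the HNF1 motif (GTTAATNAT) in 0.313% against 2.25%, with 5.59%, 1.56% and 1.79% over all regions. Between Benzonase-alone and Cyanase-alone regions, the intervals for the forkhead, HNF6, HNF4 and HNF1 motifs held 0, and the C/EBP motif differed by 1.14 percentage points (0.247 to 2.01). Apart from the HNF4 motif, the motifs of liver factors given here are rich in A and T. The mean GC content of Benzonase-alone regions and regions of Benzonase and DNase I differed by 8.58 percentage points. Its part in the motif shares was not tested.

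Motifs that hold a CpG gave mixed results. The GC box (GGGCGG), bound by Sp and Klf factors, was in 14.3% of Benzonase-alone regions, 12.7% of Cyanase-alone regions (difference 1.61, 0.470 to 2.73), 5.31% of regions of Benzonase and DNase I and 15.9% of all regions. It was in 29.7% of regions of Benzonase and Cyanase and 23.6% of regions of all 3 nucleases. The KLF box (GGGTGTGG), another motif of Klf factors, holds no CpG and went the other way. It was in 4.69% of Benzonase-alone and 5.61% of Cyanase-alone regions (difference -0.920, -1.67 to -0.190), and in 3.20% of all regions. A core of the motif of CTCF (AGNNGGCGC), the insulator protein, was in 5.82%, against 3.09% in Cyanase-alone regions (difference 2.73, 2.06 to 3.40), 3.78% in regions of Benzonase and DNase I (difference 2.04, 1.17 to 2.84) and 4.42% of all regions. Regions of Benzonase and Cyanase held this core more often, in 8.32%, and regions of all 3 nucleases in 5.52%. The E-box (CACGTG) was in 6.18% against 4.63% in Cyanase-alone regions (difference 1.55, 0.803 to 2.29), 6.25% in regions of Benzonase and DNase I (difference -0.0700, -1.09 to 0.884) and 5.99% of all regions. The NRF1 motif (GCGCATGC) was in 0.651% and the CRE (TGACGTCA) in 0.482%, against 0.398% and 0.182% in Cyanase-alone regions (differences 0.252, 0.00658 to 0.489, and 0.299, 0.107 to 0.491), and their intervals against regions of Benzonase and DNase I held 0. The ETS motif (CCGGAAGT) was in 0.602%, and its intervals against both classes held 0. The motif of REST (TTCAGCACC), a repressor of neuronal genes, holds no CpG and was rare. It was in 0.602% against 0.265% in Cyanase-alone regions (difference 0.337, 0.117 to 0.553), with 0.360% over all regions. Regions of Benzonase and Cyanase held the REST motif in 0.565%, and its interval against regions of Benzonase and DNase I held 0. The island share differed between Benzonase-alone and Cyanase-alone regions by 5.71 percentage points, and its part in these shares was not tested. The TEAD motif (GGAATG) was less frequent in Benzonase-alone than in Cyanase-alone regions, at 16.8% against 19.04%, and 15.7% of all regions held it.

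**Figure D5:**
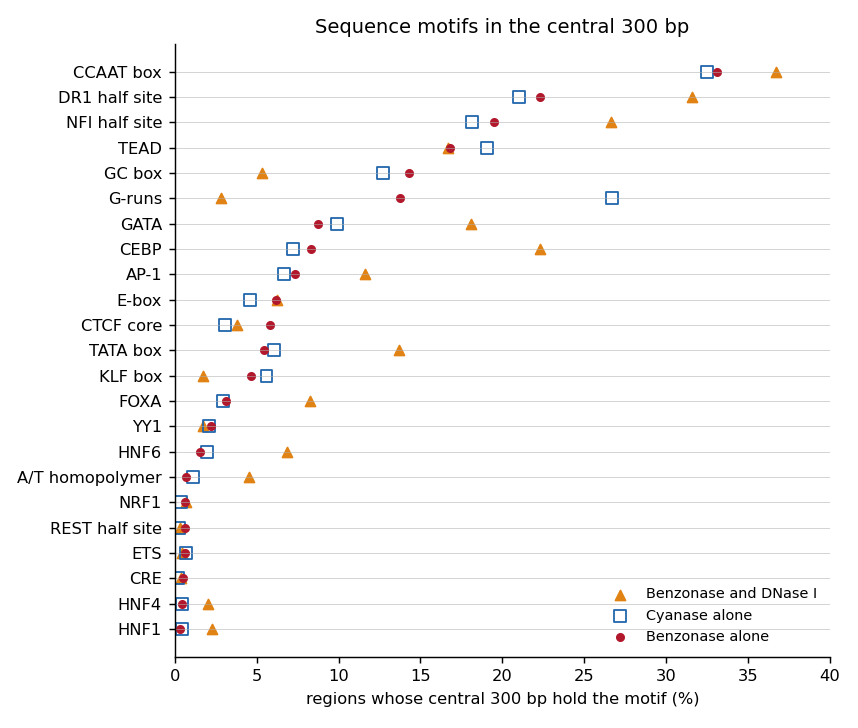
Share of regions (%) whose central 300 bp hold each of 23 sequence features, for Benzonase-alone regions (filled circles), Cyanase-alone regions (open squares) and regions of Benzonase and DNase I (triangles). Circles and squares lie close together except at G-runs, 13.8% against 26.7%. Triangles lie to the right for motifs of liver factors such as C/EBP, 22.3% against 8.34%. They do so too for some other motifs such as the TATA box, 13.7% against 5.45%, and lie to the left for the GC box and G-runs.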

How the data were processed

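Chromatin accessibility was measured by nuclease digestion and sequencing of mouse liver. Sequencing tags were mapped to mm9 by the authors, who used Eland or Bowtie. For each enzyme they combined the libraries before hotspot calling, and the file headers give an FDR of 0. The deposited lists name only the chromosome and both ends of a hotspot, without tag numbers, so tags per hotspot are unknown. The paper gives the depth of whole libraries, which was not used here. The header of the DNase I list names more libraries than the 1 sample in the labels. There were 0 columns of other samples.

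Hotspots of chromosomes 1 to 19 that shared at least 1 bp were merged into regions. Positions came from GENCODE M1 on NCBIM37 (mm9), in the order promoter, exon, intron, downstream and distal, and sequence from the same assembly, unmasked for repeats. CpG islands were segments (17 for a CpG, -1 otherwise) of at least 200 bp with a GC content above 50% and an observed to expected ratio of CpG above 0.6. Flanks were 5 kb. Shares carry 95% Wilson intervals, differences of shares Newcombe intervals and differences of means intervals from the Welch standard error, and a difference was called where its interval excluded 0. Merging, islands and intervals were tested on simulated lists and sequences. Printed coordinates count from 1.

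Members, gene lists and motifs were chosen with earlier results of these data known. Genes were named as the 10 widest regions, the 10 genes with most regions in their span, up to 4 genes per list in full, and the regions nearest the 1 bp limit. Some further list genes were named, a few items are not reported here, and the runs of G and a run of A or T among the 23 sequence features were added after values were seen. Sequences were those of the widest region per position and the closest to another list, not from chromosome 18, of which some were printed. As alternatives, hotspots had to share 50% of their length, or were joined across 150 bp, and the others were leaving out narrow hotspots, regions over 1 kb from other lists, other promoter and island definitions, the central 150 bp, flanks of 50 kb, and added chromosome X. Python 3.11.15, numpy 2.4.6, pandas 2.3.3, numba 0.67.0, pysam 0.24.0 and matplotlib 3.10.9 were used.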

Additional observations from a re-analysis of the deposited data

Results flagged for a closer look

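The sex chromosomes were left out of all comparisons above. On chromosome X, 495 of 3499 regions (14.1%, 95% Wilson interval 13.0 to 15.3) were found by Benzonase alone, against 9.13% on the autosomes. On chromosome Y it was 2 of 113 regions (1.77%, 0.487 to 6.22). All samples were from male mice.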

How the results depend on the processing

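All 39 alternatives run for the promoter and GC differences from the 3 other classes and for the island difference from Cyanase alone kept their direction and an interval that excluded 0, as did 8 of 9 chosen after the data were seen. The exception was the GC excess over the flanks against Benzonase and Cyanase, which was -1.73 over the central 150 bp. The difference in runs of G kept its direction in 6 subsets of the regions, also chosen after the data were seen. Against Benzonase and DNase I the island difference was 15.7 without narrow hotspots. The number of regions was 10898 at an overlap of 50% of both hotspots, 7740 when hotspots within 150 bp were joined, 6562 when regions within 1 kb of another list were left out and 8796 with chromosome X. It was 3828 when hotspots under the lower width quartile of each list were left out, and 1663 of these were also among the 8301. The promoter share was 11.02% at the 50% overlap, 8.77% with joining, 15.4% without narrow hotspots, 7.80% without neighbours within 1 kb, 12.1% for promoters of 1 kb to either side of a TSS and 6.77% by midpoint. The island share was 10.3% at the 50% overlap, 17.1% without narrow hotspots, 5.77% for islands of at least 500 bp with GC over 55% and a ratio over 0.65, and 7.97% at the midpoint. Mean GC content was 53.7% at the 50% overlap and 55.5% over the central 150 bp. GC content minus flanks was 9.21 at the 50% overlap, 8.68 without narrow hotspots, 10.6 without neighbours, 11.13 over the central 150 bp and 11.07 with flanks of 50 kb. Against Cyanase alone, the promoter difference was 1.47 at the 50% overlap, 1.61 by midpoint and 6.12 without narrow hotspots, the island difference 2.80 at the 50% overlap, 3.56 for longer islands and 10.9 without narrow hotspots, and the GC difference 0.323 and 1.59 at the 50% overlap and without narrow hotspots. Against Benzonase and DNase I, the promoter difference was 1.40 by midpoint, 5.75 for promoters to either side of a TSS and 7.70 without narrow hotspots. Against Benzonase and Cyanase it was -7.54 by midpoint, and the GC difference was -3.78 over the central 150 bp. Apart from what each setting does by its construction, the cause of these moves was not tested. No paired analysis was possible because each list was called on pooled tags and no sample has values of its own. For the same reason no sample could be left out. Depth limits every absence from a list. The paper gives the depth of the libraries, which was not used here, and the number of tags per hotspot is not among the columns.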
